A study of Mus musculus with 11 samples.

Results

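Transcripts of 10 genes of the unfolded protein response of the endoplasmic reticulum (ER) were followed in primary lung fibroblasts of mice lacking cGAS. The genes are Hspa5, Hyou1, Calr, Sdf2l1, Dnajb9, Pdia4, Creld2, Manf, Herpud1 and Xbp1. They were chosen by name, as the Ensembl entries of the count tables whose IDs map to these mouse symbols, and they are 10 of the 56980 genes counted. All 10 passed the filter on low counts. Most encode ER chaperones or folding factors, whereas Herpud1 serves protein disposal and Xbp1 encodes a transcription factor.

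Secreted and membrane proteins fold in the ER, where the Hsp70-type chaperone BiP and the calcium-binding lectin calreticulin hold unfinished chains. When unfolded chains accumulate, the sensors IRE1, PERK and ATF6 raise the output of chaperone and disposal genes, largely through XBP1 and ATF6 acting at ER stress elements in promoters. Fibroblasts secrete large amounts of collagen and other matrix proteins and keep this machinery at a high level.

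Each of the 11 samples was a culture from a separate mouse, per the series' design text. Cells lacking cGAS (KO), the cytosolic DNA sensor that makes the second messenger cGAMP, came from 3 females and 3 males. Wild-type (WT) cells came from 2 females and 3 males. All cultures were kept under the same conditions (DMEM/F12 with 15% serum, 37 °C, 5% O2, 5% CO2), and the labels name no stress-inducing agent. RNA was depleted of ribosomal RNA and sequenced. The extraction protocol in the labels mentions tissue, although the samples are labelled as primary fibroblasts. No source used here gives the allele, strain, age or passage.

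Total counts were 27261958 to 48039328 per library, and WT female 2 stood apart with a median correlation of 0.960 with the rest, the lowest value, and the highest share of counts on repeats (10.2%, against 5.31% to 8.10% elsewhere). Levels are given as CPM, read counts scaled by library size. In KO and WT the targeted gene Cgas lay at 2.07 ± 0.25 and 8.26 ± 1.76 CPM (SD, n = 6 and 5), a log2 fold change of -1.99 (SE 0.16, edgeR adjusted p = 0.00102). Which exons of Cgas are still read in KO cannot be seen from these counts. The 8 fibroblast markers summed to 20759 to 27688 CPM in KO and 22952 to 30035 CPM in WT, and none of them was at 0. The 10 macrophage and leukocyte markers summed to 6604 to 11265 CPM in KO and 4713 to 6847 CPM in WT, and none of them was at 0 either. The file headers name female libraries in one style and male libraries in another, so sex and library set cannot be told apart.

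The promoters are shown first, because ER stress elements are the sequence feature by which this gene group is best known. RefSeq promoters of build GRCm38.p6, 300 bases long, were at hand for 8 of the 10 members, all except Hyou1 and Manf. The ER stress element searched was a CCAAT box followed after 9 bases of any kind by a CCACG box, on both strands. It occurred in 3 of the 8 member promoters (Hspa5, Creld2, Calr) and in 37 of 27025 promoters in all (0.137%). Among other ER chaperones and folding enzymes it occurred in 5 of 25 promoters (Canx, Dnajc3, Ero1b, Hsp90b1, Pdia6), and among genes of ER-associated degradation in 2 of 16 (Derl3, Syvn1). None of the 14 promoters of the PERK-ATF4 arm or the 16 of the translocon and export list held it.

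In Hspa5 (chr2:34771840-34772089, plus strand) the element began 65 bases before the transcription start. The 250 bases before the start are printed 5′ to 3′, with both boxes of the element in capitals.
Hspa5: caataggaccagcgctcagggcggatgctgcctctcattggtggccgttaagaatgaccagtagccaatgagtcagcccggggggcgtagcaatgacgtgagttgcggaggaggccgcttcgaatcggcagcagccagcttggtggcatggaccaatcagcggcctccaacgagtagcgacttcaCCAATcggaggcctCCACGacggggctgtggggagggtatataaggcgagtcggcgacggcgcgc
In Creld2 (chr15:88819500-88819558, plus strand) and Calr (chr8:84847055-84847113, minus strand) the element lay in the opposite orientation, beginning 126 and 162 bases before the start. Its boxes therefore read CGTGG and ATTGG on the gene's strand, in capitals.
Creld2: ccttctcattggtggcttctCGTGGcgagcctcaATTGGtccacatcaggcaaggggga
Calr: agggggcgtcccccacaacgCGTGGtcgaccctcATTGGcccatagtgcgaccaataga
Herpud1 (chr8:94386357-94386407, plus strand) held the second type of element, ATTGG and CCACG with 1 base between them, beginning 52 bases before its start. This form was found in 12 of 27025 promoters (0.0444%), and its ATTGG box is the reverse complement of the CCAAT box.
Herpud1: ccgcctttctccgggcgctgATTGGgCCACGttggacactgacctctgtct
The XBP1-type core TGACGTGG was in 0 of the 8 member promoters and in 193 of 27025 promoters (0.714%). Sdf2l1, the member with the widest range between libraries, had no exact match to any of these elements. Its 250 bases before the start (chr16:17132384-17132633, minus strand) held the single boxes apart, CCAAT 3 times and CCACG 3 times counting both strands, in capitals.
Sdf2l1: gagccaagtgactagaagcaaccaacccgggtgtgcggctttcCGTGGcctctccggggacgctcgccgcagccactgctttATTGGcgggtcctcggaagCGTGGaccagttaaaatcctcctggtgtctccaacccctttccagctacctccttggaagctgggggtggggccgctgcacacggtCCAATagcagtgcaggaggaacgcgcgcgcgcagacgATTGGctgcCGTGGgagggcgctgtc
A single CCAAT box was present before 7 of the 8 member starts, all except Xbp1, and before 10133 of 27025 starts (37.5%). The elements were searched because this gene group is known for them, so these counts are a description and no new finding. Only exact matches were counted, so a promoter without one may still hold a near match. A match is only a run of letters, and no binding was measured here.

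Per kilobase of exon, Calr was the highest of the members, followed by Hspa5 and Pdia4. On the scale of CPM per kilobase, Calr stood at 312.7 ± 42.1 in WT (SD, n = 5) and 303.9 ± 20.2 in KO (SD, n = 6). Hspa5 stood at 214 ± 6.14 and 193 ± 6.78, and Pdia4 at 81.5 ± 12.6 and 80.2 ± 2.91. Across the 11 libraries these levels did not overlap between Calr (246 to 359), Hspa5 (184 to 222), Pdia4 (60.1 to 91.7) and Hyou1 (33.3 to 50.3). Below that the order of neighbours was not separated beyond the spread between libraries. Xbp1 ran from 38.2 to 45.6 CPM per kilobase, Sdf2l1 from 22.4 to 48.8, Manf from 19.8 to 29.3 and Herpud1 from 15.8 to 29.8. Creld2 ran from 14.7 to 21.4, and Dnajb9 was the lowest at 10.2 to 17.3. Exon lengths came from GENCODE vM21. In that annotation 326 exon bases of Manf overlap other genes, so part of its reads cannot be assigned without strand.

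Together the members took 2425 to 2605 CPM in the KO libraries and 2488 to 2842 CPM in the WT libraries, a sum in which Calr and Hspa5 weigh most. WT female 2 had the lowest WT sum, and the other 4 WT libraries lay at 2652 CPM or more, above all 6 KO libraries. In bulk RNA, fewer cells of a type and less RNA per cell cannot be told apart.

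**Figure D1:**
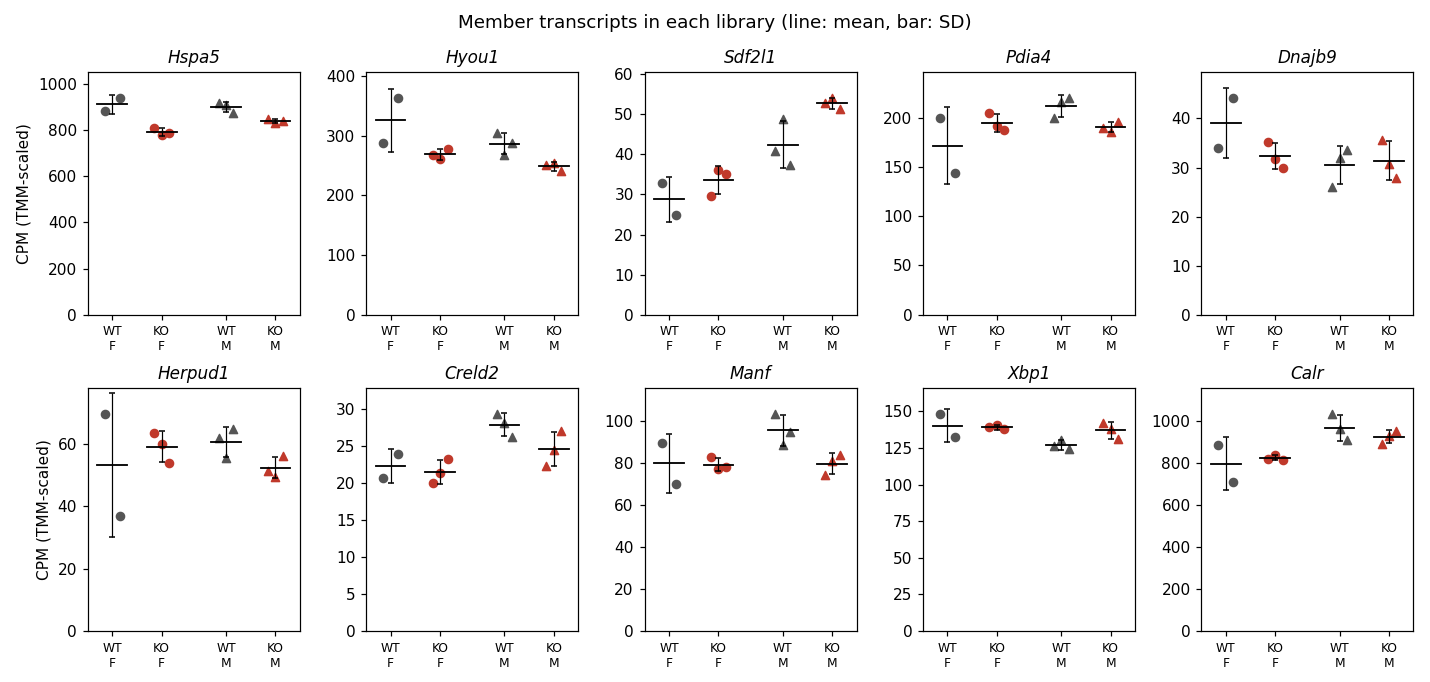
CPM (TMM-scaled) of the 10 members in each library, one panel per gene, grouped by genotype (WT grey, KO red) and sex (F circles, M triangles), with the mean (line) and SD (bar) of each group. Hspa5 lies between 779 and 849 CPM in the KO libraries and between 876 and 939.6 CPM in the WT libraries; Sdf2l1 is at 37.4 CPM or more in all male libraries and at 36.2 CPM or less in all female libraries.

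The first question was whether loss of cGAS changed these transcripts over both sexes. None of the 10 members passed edgeR's quasi-likelihood test at an adjusted p of 0.05, a test that called 0.00448% of the 22298 entries (Cgas alone). Hspa5 and Hyou1 had lower and Sdf2l1 had higher values in KO at an unadjusted p under 0.05, that is 3 of 10 members against 17.2% of all entries. By sign, 8 of 10 members had a negative log2 fold change, against 52.5% of all entries. The median member stood at -0.08 and the median of all entries at -0.02. Within females 6 of 10 members were negative, with a median of -0.008, against 48.5% of all entries negative. Within males 7 of 10 were negative, with a median of -0.13, against 52% of all entries. DESeq2 called 2 members, Hspa5 and Hyou1, both lower, where it called 2.45% of all entries. limma-voom with sample quality weights called 0 members and 14.6% of all entries. Its weights over both sexes ran from 0.141 for WT female 2 to 5.52 for WT male 2. The next highest WT weight was 0.552, so its WT values rest mostly on WT male 2. Without WT female 1, edgeR called 1 member, Hyou1, and 7.33% of all entries.

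Hspa5 encodes BiP, the central ER chaperone, which also keeps the stress sensors silent. Its values were 809.6, 779 and 786 CPM in KO females and 849, 830.4 and 839 CPM in KO males. In WT they were 883 and 939.6 CPM in females and 917, 910.3 and 876 CPM in males. All KO libraries therefore lay below all WT libraries, a pattern in this direction shown by 0.426% of all entries. The gap between the highest KO value, 849 CPM, and the lowest WT value, 876 CPM, was narrow. The log2 fold change was -0.15 (SE 0.065, 95% interval -0.29 to -0.005, edgeR adjusted p = 0.276). With DESeq2 it was -0.16 (adjusted p = 0.0286), and with limma-voom -0.13 (adjusted p = 0.0546). The separation of genotypes held under each of the other scalings tried. Leaving out a library cannot undo such a separation, so the leave-outs say nothing about it.

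Hyou1 encodes the large ER chaperone that exchanges nucleotide on BiP. KO females had 269, 261 and 278 CPM and KO males 251, 255 and 241 CPM. WT females had 289 and 364 CPM and WT males 305, 269 and 287 CPM. KO female 3 lay above WT male 2, and these libraries made the only overlap between genotypes. Within each sex every KO library of Hspa5 and of Hyou1 was below every WT library, which 1.23% of all entries showed. The log2 fold change of Hyou1 was -0.24 (SE 0.075, 95% interval -0.40 to -0.07, edgeR adjusted p = 0.184). DESeq2 gave -0.25 (adjusted p = 0.0463) and edgeR without WT female 1 gave -0.28 (adjusted p = 0.0474). WT female 2 held the highest value, 364 CPM, and without it the log2 fold change was -0.19 (edgeR adjusted p = 0.188). With limma-voom the value was -0.12 (adjusted p = 0.10). That tool weighted WT female 2 at 0.141 and WT male 2, the lowest WT library of Hyou1, at 5.52.

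Sdf2l1 encodes a small ER protein that works with BiP's J-domain partners, and its values differed in the other direction. KO females had 29.5, 36.2 and 35.1 CPM, and KO males had 52.7, 54.0 and 51.2 CPM. WT females had 32.8 and 24.9 CPM, and WT males had 40.9, 48.9 and 37.4 CPM. In males every KO library was above every WT library, whereas in females the genotypes overlapped. The log2 fold change over both sexes was 0.27 (SE 0.097, 95% interval 0.06 to 0.49, edgeR adjusted p = 0.209; DESeq2 adjusted p = 0.121). With limma-voom it was 0.16 (adjusted p = 0.151).

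Because Hspa5 and Sdf2l1 differed in opposite directions, their ratio within a library, chosen after the values were seen, is free of the scaling between libraries. Sdf2l1 had 3.64, 4.64 and 4.46 reads per 100 Hspa5 reads in KO females and 6.21, 6.51 and 6.10 in KO males. It had 3.71 and 2.65 in WT females and 4.46, 5.37 and 4.27 in WT males. The KO males were above all other libraries, and the KO females overlapped both the WT females and the WT males.

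The other 7 members did not reach an unadjusted p of 0.05 over both sexes. In KO and WT, Manf, a secreted ER-resident trophic factor, stood at 79.3 ± 3.76 and 89.1 ± 12.2 CPM (SD, n = 6 and 5). Its log2 fold change was -0.15 (SE 0.087, edgeR adjusted p = 0.382). Without WT female 2, the lowest Manf library at 69.8 CPM, the value was -0.25 (edgeR adjusted p = 0.188). All KO libraries then lay below all WT libraries, but that library alone had made the overlap. The share of all entries with this pattern in the remaining libraries was not counted. Creld2, a disulfide isomerase-like factor, stood at 23.0 ± 2.45 and 25.6 ± 3.43 CPM. Its log2 fold change was -0.12 (SE 0.079, edgeR adjusted p = 0.432).

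Calr, calreticulin, lay at 875 ± 58.3 CPM across the KO libraries and 901 ± 121 CPM across the WT libraries (SD, n = 6 and 5). The difference was -0.02 (SE 0.081, 95% interval -0.19 to 0.16, edgeR adjusted p = 0.940). Pdia4, a disulfide isomerase of the ER lumen, lay at 192 ± 6.98 and 196 ± 30.2 CPM. The wide WT spread came from WT female 2 at 144 CPM, the other 4 WT libraries running from 199 to 219.9 CPM. Without that library the log2 fold change of Pdia4 moved from -0.005 to -0.13 (edgeR adjusted p = 0.264).

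Herpud1, a membrane component of ER-associated degradation, had a similar single low value. WT female 2 stood at 36.9 CPM, where the other WT libraries ran from 55.4 to 69.6 CPM and the KO libraries from 49.6 to 63.6 CPM. Its log2 fold change was -0.05 (SE 0.15) with all libraries and -0.24 without that one (edgeR adjusted p = 0.188). Without WT female 1 the sign turned for Herpud1 (0.06), Pdia4 (0.04) and Calr (0.03).

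Dnajb9, the J-domain cochaperone that keeps IRE1 inactive with BiP, lay at 31.8 ± 3.02 and 33.9 ± 6.55 CPM in KO and WT (SD, n = 6 and 5). The log2 fold change was -0.10 (SE 0.11, edgeR adjusted p = 0.668). WT female 2 was its highest library at 44.2 CPM, and the fold change was -0.01 without it (edgeR adjusted p = 0.949). Xbp1, the transcription factor activated when IRE1 removes an intron from its RNA, had the narrowest range of the members. Its KO and WT levels were 138 ± 3.98 and 132 ± 9.49 CPM (SD, n = 6 and 5), a log2 fold change of 0.06 (SE 0.060, edgeR adjusted p = 0.644). Its spliced and unspliced forms are counted together here.

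**Figure D2:**
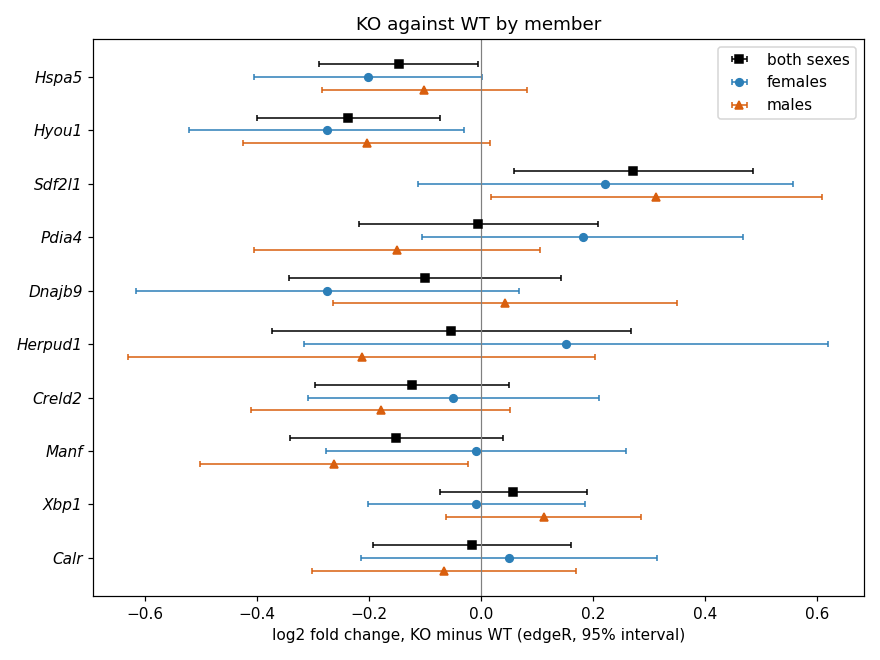
Fitted log2 fold change, KO minus WT, with its 95% interval (edgeR) for each member over both sexes (black squares), in females (blue circles) and in males (orange triangles). Over both sexes the intervals of Hspa5, Hyou1 and Sdf2l1 do not include 0, and none of the 10 members passes the adjusted threshold.

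Within females, 0 members passed the threshold in edgeR, DESeq2 and limma-voom, which called 0.00436%, 0.0261% and 0% of 22960 entries. Hyou1 was the 1 member at an unadjusted p under 0.05 (6.66% of entries), with a log2 fold change of -0.28 (SE 0.11, edgeR adjusted p = 0.692). Hspa5 was at -0.20 (SE 0.092, edgeR adjusted p = 0.692). Without WT female 1, which leaves WT female 2 as the only WT female and assumes that it varies like the other groups, edgeR called 3 members. These were Hyou1 (-0.42), Pdia4 (0.45) and Herpud1 (0.70), beside 15.4% of all entries. Without WT female 2 the values were -0.10 for Hyou1, -0.04 for Pdia4 and -0.24 for Herpud1, and edgeR called 0 members, with 0 at an unadjusted p under 0.05.

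Within males, 0 members passed in edgeR, DESeq2 and limma-voom, which called 2%, 9.27% and 20% of entries. Sdf2l1 (0.31, SE 0.13, edgeR adjusted p = 0.201) and Manf (-0.26, SE 0.11, edgeR adjusted p = 0.187) were the members at an unadjusted p under 0.05, as were 22.2% of entries. WT male values of Manf were 103, 88.4 and 94.8 CPM, all above the KO males at 74.0, 80.8 and 83.7 CPM. In all, Hspa5, Hyou1, Pdia4 and Manf had every KO male below every WT male, a pattern of 13.4% of entries. Sdf2l1 and Xbp1 had every KO male above every WT male, a pattern of 18% of entries. In the same males, macrophage and leukocyte markers were positive for 9 of 10 genes, of which 3 were called. All 6 contractile markers were negative, of which 3 were called. The 6 epithelial markers tested were all negative, with 1 called. Of 5 pericyte markers 4 were negative, with 1 called, lower. Of 6 endothelial markers 4 were negative and 2 positive, with 1 called, higher. The 4 mesothelial markers were negative, with 0 called. Of the 3 B and plasma cell markers tested in males 1 was called, Ighm, named here after its value was seen, at 2.54 (SE 0.34, edgeR adjusted p = 0.0460). The other 2 were negative in males, and the median of the 3 was -0.93. The part of these marker lists in the members' values was not tested.

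The difference of the genotype effect between females and males was tested directly. It passed for 0 members in edgeR, DESeq2 and limma-voom, which called 0%, 0.989% and 0% of 22960 entries. At an unadjusted p under 0.05 edgeR had 0 members and 13.1% of entries. The widest member difference, female minus male, was that of Herpud1 at 0.37 (SE 0.28, 95% interval -0.26 to 0.99, edgeR adjusted p = 0.590). Pdia4 followed at 0.33 (SE 0.17, edgeR adjusted p = 0.441). Both carry the low value of WT female 2, and without WT female 1 both were called, at 0.91 and 0.60, beside 10.1% of all entries. Without WT female 2 the difference was 0.002 for Herpud1 (edgeR adjusted p = 0.999) and 0.14 for Pdia4 (edgeR adjusted p = 0.699).

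Between the sexes, Sdf2l1 was the member that changed. It was higher in males by 0.61 on the log2 scale (SE 0.098, 95% interval 0.39 to 0.82, edgeR adjusted p = 0.0141), at 47.5 ± 6.79 CPM in males (SD, n = 6) and 31.7 ± 4.58 CPM in females (SD, n = 5). It was 1 of 10 members called, where the test called 4.29% of entries, 1.83% in this direction. The call held in each of the 16 alternatives, with values from 0.55 to 0.69. DESeq2 and limma-voom each called 3 members, Sdf2l1, Creld2 and Calr, all higher in males, beside 12.8% and 26.8% of entries.

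Every male library was above every female library for Sdf2l1 and Calr, a pattern of 2.68% of entries. Calr had 821, 839, 816, 887 and 709 CPM in the female libraries, KO first, and 892, 930.4, 953, 1034, 964 and 909.6 CPM in the male libraries. The lowest male and the highest female value of Calr thus lay close together. The difference was 0.22 (SE 0.081, edgeR adjusted p = 0.119) for Calr and 0.25 (SE 0.079, edgeR adjusted p = 0.0795) for Creld2. The 8 proliferation genes also had higher values in males, all at an unadjusted p under 0.05 with a median of 0.71, and 2 were called. At that p stood 3 members (Sdf2l1, Creld2 and Calr) and 27.1% of all entries. Their part in the Sdf2l1 difference was not tested, and sex cannot be told apart from the library set. Dnajb11, an ER J-domain protein named here after its value was seen, was the other ER chaperone called, at 0.40 (SE 0.097, edgeR adjusted p = 0.0472).

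**Figure D3:**
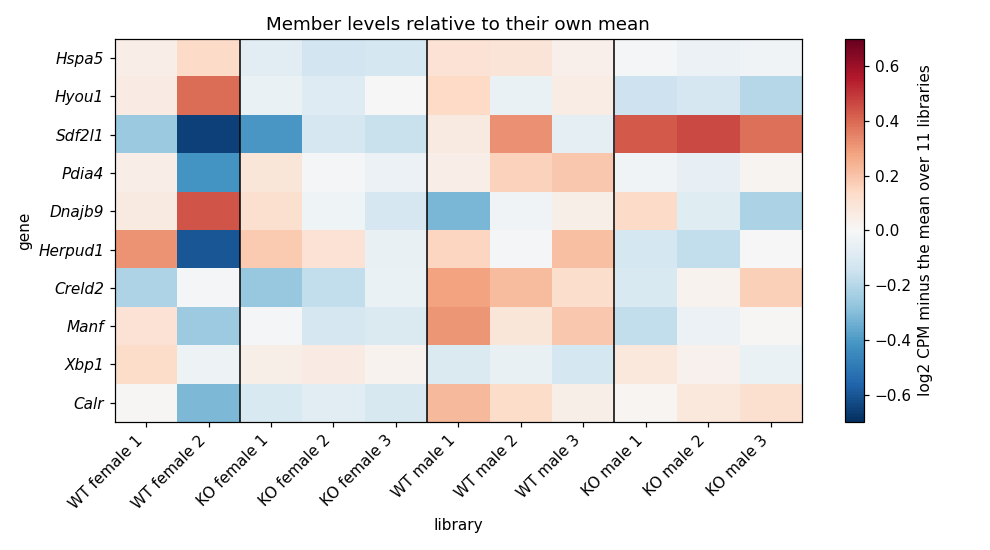
Log2 CPM of each member minus its own mean over the 11 libraries (colour, red above and blue below the mean), with libraries in columns by genotype and sex. Sdf2l1 is above its mean in the 3 KO males and WT males 1 and 2, and WT female 2 departs furthest, low for Sdf2l1, Herpud1 and Pdia4 and high for Hyou1 and Dnajb9.

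The members did not form one block across libraries. The ratio of the highest to the lowest library was 1.19 for Xbp1, 1.21 for Hspa5 and 2.17 for Sdf2l1, with the other members from 1.46 to 1.89. WT female 2 was the lowest library for Sdf2l1, Pdia4, Herpud1, Manf and Calr, and the highest for Hspa5, Hyou1 and Dnajb9. Over 45 member pairs and 11 libraries, which share genotype, sex and library set, the median Pearson r of log2 CPM was 0.08. It was 0.17 without WT female 2, and 16 pairs changed sign.

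Some pairs departed from that median. Pdia4 and Herpud1 had the highest r, 0.86 (Spearman's rho 0.78), which fell to 0.55 without WT female 2. Creld2 and Xbp1 had the lowest, -0.85 (rho -0.85), and -0.86 without that library. Hspa5 and Hyou1, chaperone and nucleotide exchange partner, had an r of 0.64 (rho 0.63) and of 0.46 without it. Against the mean of the other 9 members, Calr had an r of 0.89 and Manf of 0.75. Hspa5 had 0.23 with all libraries and 0.95 without WT female 2, and Hyou1 had -0.50 and 0.19. Dnajb9 went from -0.73 to -0.46 and Xbp1 from -0.48 to -0.69 when that library was left out. These values are descriptions across few libraries and carry no test.

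**Figure D4:**
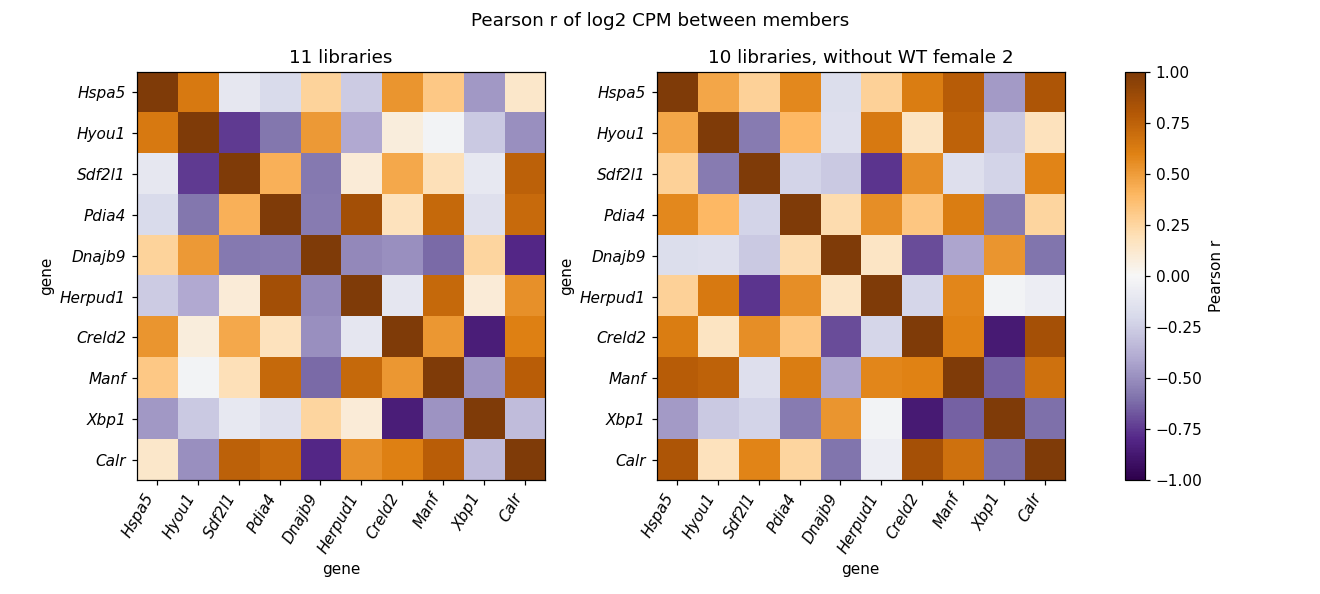
Pearson r of log2 CPM for each pair of members (colour scale from -1 to 1) over all 11 libraries (left) and over the 10 libraries without WT female 2 (right). The Pdia4 and Herpud1 pair falls from 0.86 to 0.55, while Creld2 and Xbp1 stay near -0.85 in both panels.

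Among 13644 other genes whose log2 CPM averaged 1 or more, the pattern most like the mean log2 CPM of the members was that of Pdia3, at r = 0.95 over 11 libraries (rho 0.94). Pdia3 encodes the disulfide isomerase that works with calreticulin, and it ranked 2 without WT female 2. Rabl3 (0.94), Ppp2cb (0.94), Mecom (0.93), Map3k15 (0.93), Pak1ip1 (0.93), Tmem126a (0.93) and Tigar (0.92) followed. Without that library their ranks ran from 4 to 29. None of these 8 genes passed edgeR's test between genotypes, the smallest adjusted p being 0.428.

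Other parts of the secretory machinery were read from lists of related genes. Over both sexes edgeR called 0 genes in any of the 11 lists, as it called Cgas alone among all entries. The list counts below stand beside 52.5% of all entries negative and 17.2% at an unadjusted p under 0.05. DESeq2 called 2.45% and limma-voom 14.6% of all entries. Of 28 other ER chaperones and folding enzymes, 18 were negative, with a median of -0.06 and 4 at an unadjusted p under 0.05. The smallest p-values were those of Fkbp11, a prolyl isomerase of the secretory route, and Pdia5, a disulfide isomerase. The KO and WT levels of Fkbp11 were 10.6 ± 2.97 and 15.3 ± 2.21 CPM (SD, n = 6 and 5), a log2 fold change of -0.60 (SE 0.13, edgeR adjusted p = 0.179). Pdia5 had 23.7 ± 3.50 and 34.4 ± 5.94 CPM, or -0.53 (SE 0.13, edgeR adjusted p = 0.179). DESeq2 called both of them, both lower in KO, and edgeR without WT female 1 did so too. limma-voom called Fkbp11 and Fkbp10.

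Kdelr1, Kdelr2 and Kdelr3 encode receptors that return escaped chaperones from the Golgi to the ER. Kdelr3 had 49.6 ± 8.21 and 64.3 ± 6.67 CPM in KO and WT, or -0.39 (SE 0.12, edgeR adjusted p = 0.181). Kdelr2 stood at -0.24 (SE 0.080, edgeR adjusted p = 0.198) and Kdelr1 at -0.06 (SE 0.099, edgeR adjusted p = 0.781). They belong to the list of translocon, signal peptidase and vesicle export, in which 17 of 23 genes were negative and 5 were at an unadjusted p under 0.05. Of the 23, limma-voom called Kdelr3 and DESeq2 none. In N-glycosylation and glucose trimming, 8 of 9 genes were negative, with 1 at an unadjusted p under 0.05 and none called by DESeq2 or limma-voom. Stt3a, a catalytic subunit of the oligosaccharyltransferase, stood at -0.18 (edgeR adjusted p = 0.248) and Prkcsh, the glucosidase II beta subunit, at -0.16 (edgeR adjusted p = 0.301).

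ER-associated degradation showed no common direction, with 10 of 20 genes on each side and 2 at an unadjusted p under 0.05. Os9, a lectin that delivers misfolded glycoproteins for disposal, had 155 ± 12.5 and 127 ± 13.6 CPM in KO and WT (SD, n = 6 and 5). Its log2 fold change was 0.29 (SE 0.087, edgeR adjusted p = 0.179), called by limma-voom and by edgeR without WT female 1. Derl3 was near the detection range at 0.60 ± 0.24 and 1.00 ± 0.42 CPM. limma-voom called 3 genes of this list, all higher, beside 14.6% of all entries, and DESeq2 called none.

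The list of sensors and membrane-bound factors also held Ppp1r15b and Dnajc3, and Dnajc3 is counted among the other ER chaperones too. Of its 11 genes, 6 were positive. None had an unadjusted p under 0.05, and neither DESeq2 nor limma-voom called any. Creb3l2 (-0.29, edgeR adjusted p = 0.309) and Atf6b (0.19, edgeR adjusted p = 0.351) had the smallest p. The PERK-ATF4 arm, the branch that slows translation and induces amino acid genes, had 11 of 14 genes negative with a median of -0.25. Of the 14, 2 were at an unadjusted p under 0.05. The median of this arm was -0.04 in females and -0.34 in males. Slc7a11, the cystine transporter, stood at -0.55 (SE 0.18, edgeR adjusted p = 0.185) and Ddit3, which encodes CHOP, at -0.46 (SE 0.17, edgeR adjusted p = 0.219). limma-voom called 5 genes of this arm, all lower, beside 14.6% of all entries, and DESeq2 called none.

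The neighbouring chaperone systems and the cargo were read in the same way. The CREC calcium-binding proteins had 4 of 5 genes negative, led by Rcn3 (-0.27, edgeR adjusted p = 0.263) and Rcn1 (-0.25, edgeR adjusted p = 0.290). Of the cytosolic heat shock genes 6 of 9 were negative, with Hspb1 at -0.65 (edgeR adjusted p = 0.200) and Hsph1 at -0.40 (edgeR adjusted p = 0.179, DESeq2 adjusted p = 0.0496). Of the mitochondrial chaperones and proteases 5 of 6 were negative, with Hspa9 at -0.24 and Hspe1 at -0.17. Among the matrix proteins that pass through the ER, 6 of 10 were negative, with Sparc at -0.30 (edgeR adjusted p = 0.245) and Col1a1 at -0.25 (edgeR adjusted p = 0.310). At an unadjusted p under 0.05 these lists held 2, 2, 1 and 1 genes. DESeq2 called 1 of them and limma-voom 5, all lower. Of 8 proliferation genes 4 were positive, with Pcna at 0.27 (edgeR adjusted p = 0.336) and Mki67 at 0.09 (edgeR adjusted p = 0.863), and no tool called any.

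**Figure D5:**
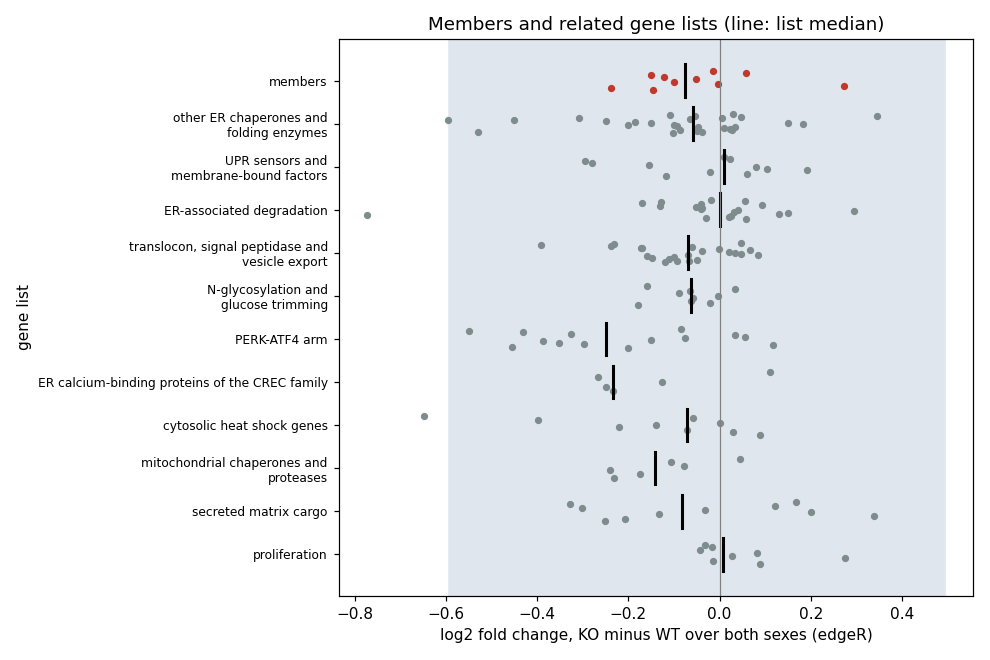
Fitted log2 fold change, KO minus WT over both sexes (edgeR), for each member (red) and each gene of 11 related lists (grey), with the list median (bar); the shaded band spans the 5th to 95th percentile of all 22298 entries, -0.59 to 0.49. All 10 members lie inside the band, and the list medians run from -0.25 for the PERK-ATF4 arm to 0.01.

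Markers of other cell types were summed in the same libraries. B and plasma cell markers, from cells that are rich in ER chaperones, summed to 2.35 to 8.22 CPM in KO and 1.94 to 3.51 CPM in WT. The 3 KO males, at 6.84 to 8.22 CPM, were above all other libraries. Of these 6 markers 2 could be tested over both sexes, of which 1 was positive and 1 negative. The negative one was Derl3, which also belongs to the list of ER-associated degradation, so these lists are not independent. Jchain, Mzb1 and Tnfrsf17 were at 0 in 6, 9 and 1 of the libraries. Epithelial markers summed to 9.43 to 35.2 CPM in KO and 20.4 to 51.3 CPM in WT, with Epcam, Sftpc and Scgb1a1 at 0 in 3, 1 and 7 libraries. Contractile markers summed to 1725 to 4074 CPM in KO and 2848 to 5429 CPM in WT. All 6 were negative over both sexes, with 4 at edgeR's unadjusted p under 0.05. Of the 10 macrophage and leukocyte markers 9 were positive over both sexes and 1 negative, with a median of 0.48. At that p stood 7 of them, beside 17.2% of all entries, and edgeR called 0 in either list. Endothelial, pericyte and mesothelial sums stood at 8.83 to 120 CPM in KO and 17.1 to 185 CPM in WT. The sums of every marker list overlapped between the genotypes. The part of the leukocyte, B and plasma cell, epithelial, endothelial, pericyte, mesothelial and contractile differences in the values of the members was not tested.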

How the data were processed

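Raw counts per gene and repeat subfamily, not normalized, were deposited by the authors as 1 table for each sample. Per the submitters' processing notes, reads went through Trim Galore and STAR on GRCm39 (versions not given). How reads were counted, by strand or not, and on which annotation, is not given in the sources used here. Each table held 58223 entries: 56980 Ensembl genes and 1243 repeat subfamilies, fitted together. Symbols and exon lengths came from GENCODE vM21 of the older GRCm38 build, which matched 52073 gene IDs. Promoters came from RefSeq.

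Differences were tested with edgeR 4.0.16 in R 4.3.3 (quasi-likelihood F-test, TMM scaling, filterByExpr with a minimum count of 10, Benjamini-Hochberg adjustment over all entries tested, threshold 0.05). Contrasts over both sexes and between sexes used sex and genotype as terms (8 residual degrees of freedom). Contrasts within a sex and their difference used a separate mean for each of the 4 groups, leaving 7 degrees of freedom. Log2 fold changes are KO minus WT unless stated, CPM use TMM-scaled library sizes, and log2 CPM use a prior count of 2. The SE printed for edgeR is the absolute log2 fold change divided by the square root of the test's F. The 95% intervals were built from that SE, so they restate the unadjusted p and are no separate estimate. The same models were run with DESeq2 1.42.0 and with limma 3.58.1 (voom with sample quality weights). Further alternatives were other scalings, no filter, a replicate block and leaving out each library. Scripts were tested on simulated data. No libraries were identical: within a group, pairs of libraries differed with a chi-square of 12.0 to 144 per degree of freedom, counting entries with 20 or more reads in the pair.

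A count of 0 in a library allows up to 3 counts, or 0.0610 to 0.112 CPM, which covers counting error only. Named genes are Cgas, the members, the 2 genes of each related list with the smallest p over both sexes, and the 8 genes most like the members' mean. The members and lists were chosen with earlier results of these data known. A marker of the B and plasma cell list is not reported here and was left out of its sum.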

Additional observations from a re-analysis of the deposited data

Results flagged for a closer look

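Pdia4 in WT female 2 was the lowest of the 5 WT libraries at 144 CPM, far from the next value of 199 CPM. The highest WT library stood at 219.9 CPM. The gap took 0.726 of the group's whole range, above the critical value of 0.71 for 5 samples. The 10 members were examined in 20 groups, and chance flags about 1 in 20 such groups.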

How the results depend on the processing

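The lowest member count in a library was 621, for Creld2 in KO female 3. Over both sexes edgeR called 0 members; DESeq2 called 2, and leaving out 1 library at a time gave 0 to 1. Leaving out 1 library gave 0 to 3 calls in females, 0 in males and 0 to 2 for the genotype by sex difference. Between the sexes edgeR called 1 member, and DESeq2 and limma-voom each called 3. The number of entries called in all depended on the tool and on the libraries kept, among them WT female 1. With edgeR, DESeq2 and limma-voom, and with edgeR without that library, it was 1, 546, 3259 and 1678 over both sexes, 1, 6, 0 and 3709 in females, 459, 2129, 4584 and 2065 in males, 0, 227, 0 and 2435 for the genotype by sex difference, and 956, 2845, 5971 and 3340 between sexes. Leaving out other libraries moved edgeR's count too. In males it ran from 0 (for instance without KO female 2) to 1766 (without WT female 2). Between the sexes it ran from 104 (without KO male 2) to 1650 (without WT male 3). The cause was not tested.

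The median member log2 fold change, -0.0762, was -0.126 with limma-voom and ran from -0.127 to -0.0451 with 1 library left out. Sign reversals of members were those of Pdia4 (0.00204 without a filter on low counts, and -0.131 to 0.0361 over libraries left out), Herpud1 (-0.239 to 0.0634) and Calr (-0.0981 to 0.0285). Mki67 reversed with limma-voom (-0.0815) and ran from -0.124 to 0.237 over libraries left out. Members with every KO library below every WT library numbered 1, and 2 with total counts in place of TMM or without KO female 3, WT female 2 or WT male 2 (chosen after seeing the data). Leaving out a library cannot lower this count, and the share of all entries was not counted for these settings.

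Deviations of same-numbered libraries from their group means correlated at -0.145 to 0.0731, within the range of differently numbered pairs, -0.238 to 0.192. In groups this small such deviations are tied to one another, so these values cannot tell whether the replicate numbers pair the samples. With the replicate number within sex as a block, 0 members were called, the median was -0.0385, and Cgas itself missed the threshold at -1.96 (edgeR adjusted p = 0.0739, 4 residual degrees of freedom).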
